A study of Mus musculus with 2 samples.

Results

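Slit ligands and their Robo receptors were followed through the nuclei of the mouse hippocampus at postnatal day 19. The members were the 6 genes Slit1, Slit2, Slit3, Robo1, Robo2 and Robo3, matched by symbol among 33696 genes in the deposited matrices, and all 6 were found. There were 2 libraries of single-nucleus RNA sequencing, a method that counts unique molecular identifiers (UMIs) for each gene in each nucleus. The control library came from Cicflox/flox mice, whose Cic gene, encoding the transcriptional repressor Capicua, is flanked by loxP sites. The other library, labelled knockout, came from littermates of genotype Emx1-Cre; Cicflox/flox, so both groups carry the floxed allele and Cre is the labelled difference between them. Emx1-Cre recombines floxed alleles in cells descended from the dorsal telencephalon, a lineage that gives rise to excitatory neurons, astrocytes and part of the oligodendrocyte lineage, while hippocampal inhibitory neurons arise elsewhere. Each library pooled hippocampal tissue of 3 mice, 2 males and 1 female. With 1 library per genotype no difference between the genotypes can be tested, so every interval given here is a 95% interval for counting error only, and values for single mice are not separated.

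Slits are large secreted proteins that bind the immunoglobulin domains of Robo receptors on growing axons and migrating cells, usually with repulsion as the outcome. Robo1 and Robo2 are the classical Slit receptors, whereas mammalian Robo3 binds Slit poorly and is known for counteracting Slit repulsion in commissural axons before they cross the midline. In the hippocampus, granule neurons of the dentate gyrus send mossy fibers to CA3, and CA3 neurons project on to CA1, so ligand and receptor levels in these classes bear on the wiring that the study's title names.

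In the control library 21865 nuclei were used, with a median of 9790 UMIs each, and in the library labelled knockout 20531 nuclei with a median of 8766. Of the cell barcodes, 175 occurred in both libraries, which is 0.675% of the control barcodes and 0.754% of the others. Clusters of nuclei were named from marker genes, hence the ending "-like", and the 6 members and the 52 genes of a pathway list took no part in the clustering. There were 16 classes with at least 100 nuclei in each library, and a mossy cell-like class of 71 and 112 nuclei is given by its values only, so every order of levels given here is among the 16. The cycling progenitor-like class joined a cluster led by Top2a (438 and 441 nuclei, median 2978 and 2589 UMIs) with a cluster of 88 and 85 very deep nuclei (median 42926 and 46669 UMIs), which holds most of its UMIs. Unnamed clusters held 9.44% and 10.9% of the nuclei, and an ependymal or choroid plexus-like cluster of 22 and 28 nuclei was too small to compare. Levels are UMIs per 1000000 UMIs of a class (CPM) and are compared for a gene across classes and libraries, never between genes, since they are not divided by gene length. Counts of Cic, the gene targeted, did not go down with the label: granule-like nuclei had 9.15 CPM in the control library and 12.8 CPM in the other (log2 ratio 0.49, interval 0.31 to 0.66), and inhibitory-like nuclei 9.90 and 9.07 CPM. The ratio was larger in CA1-like (6.54 and 12.7 CPM, 0.95, interval 0.73 to 1.18) and CA3-like nuclei (6.87 and 11.6 CPM, 0.75, 0.49 to 1.02). A count over the whole gene cannot tell a transcript with the floxed part from one without it.

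In granule-like nuclei Robo1 was 3.69 times higher and Robo3 3.73 times lower in the library labelled knockout, while Robo2 and the Slits differed by less than 2-fold. Robo1 was also 3.13 times higher in CA1-like nuclei, and 1.36 times higher in CA3-like nuclei, the field that mossy fibers enter. Among the ligands, the largest differences in excitatory classes were those of Slit2, whose level in CA3-like nuclei was 1.80 times lower and in CA2-like nuclei 1.81 times lower. In inhibitory-like nuclei, whose lineage Emx1-Cre does not mark, Robo1 (1847 and 1836 CPM), Robo2 (731 and 729 CPM), Slit1 and Slit2 had intervals of the ratio that included 0. Slit3 was 140 and 120 CPM there (log2 ratio -0.22, interval -0.30 to -0.14). Robo3, on 47 and 18 UMIs, was 2.25 and 0.984 CPM (-1.17, -2.06 to -0.38). These are values of the whole class. Its clusters, described under Other observations, did not all go the same way for Slit2 and Robo1.

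A size rule took the place of a test: a gene passed if its CPM differed at least 2-fold and the higher library held at least 50 UMIs and 10 CPM, and "rose" and "fell" are used here of such genes alone. In granule-like nuclei 2 of the 6 members passed, against 3.1% of the 8453 genes that had enough counts to pass. For CA1-like nuclei the count was 1 of 6 (3.64% of all genes), for CA3-like nuclei 0 of 6 (1.61%) and for inhibitory-like nuclei 0 of 6 (0.0911%). Outside these, Robo3 passed in cycling progenitor-like nuclei (background 0.903%), Slit1 in committed oligodendrocyte precursor-like nuclei (1.26%), and Slit2 and Slit3 in endothelial-like nuclei (5.6%). No member passed in the other 9 classes. The share of all genes that passed there was 0.211% in oligodendrocyte precursor-like, 0.233% in astrocyte-like, 0.293% in immature granule-like, 0.753% in radial glia-like, 1.12% in subicular or cortical excitatory-like, 1.39% in microglia-like, 1.44% in Cajal-Retzius-like, 3.24% in oligodendrocyte-like and 3.26% in CA2-like nuclei. Not every member could have passed everywhere: Robo3 had enough counts in 4 of the 16 classes and Slit1 in 11, and the other 4 members in all 16.

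**Figure D1:**
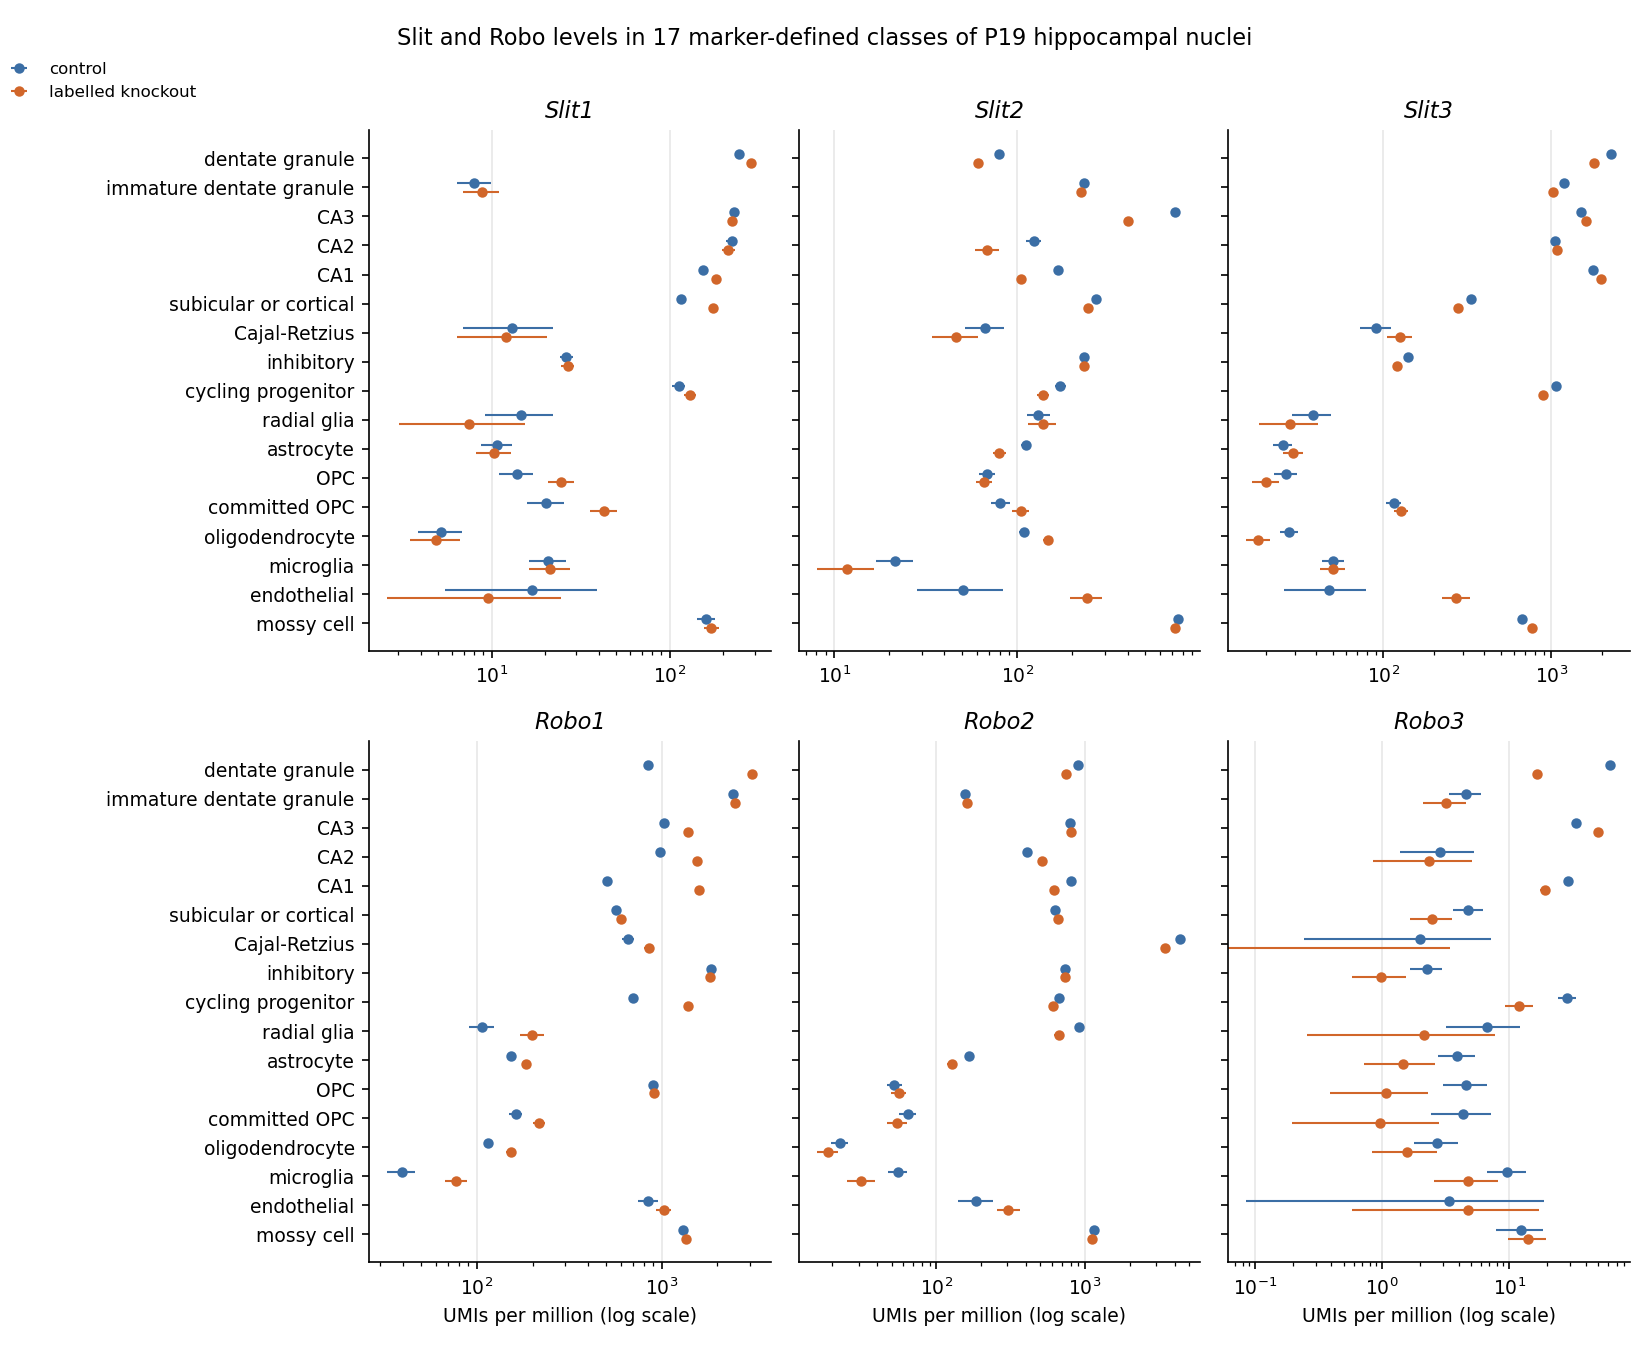
Levels of the 6 genes in CPM on a log scale (x axis, scaled for each gene) in 17 classes of nuclei named from markers (y axis), the last with under 100 nuclei in 1 library. Points are the control library (blue) and the library labelled knockout (orange), bars are exact Poisson 95% intervals, and a count of 0 (Robo3, Cajal-Retzius) has no point. Robo1 is far apart between libraries in granule (838 and 3096) and CA1 (509 and 1592) nuclei and together in inhibitory nuclei (1847 and 1836).

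Slit1 (ENSMUSG00000025020) had its highest levels in excitatory classes. Its control level was highest in granule-like nuclei, at 246 CPM, followed by CA3-like with 229, CA2-like with 224, CA1-like with 154 and subicular or cortical excitatory-like nuclei with 116. Mossy cell-like nuclei had 160 CPM (172 in the other library). Cycling progenitor-like nuclei had 112 CPM, with an interval overlapping that of the subicular or cortical class, but 571 of their 620 UMIs came from the very deep nuclei (139 CPM), and the cluster led by Top2a had 34.6 CPM. The intervals of CA3-like and CA2-like nuclei overlapped, and so did those of most neighbours below 30 CPM, where inhibitory-like nuclei had 26.3 CPM and microglia-like nuclei 20.8. Immature granule-like nuclei had 8.01 CPM of Slit1, below the level in microglia-like nuclei, a class used here to show how much free RNA reaches a nucleus. In the library labelled knockout the same 5 excitatory classes led in the same order.

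Between libraries, Slit1 stood at 246 and 288 CPM in granule-like nuclei (log2 ratio 0.23, interval 0.20 to 0.27) and at 154 and 183 CPM in CA1-like nuclei (0.25). In the granule cluster that held both libraries in balance (cluster 6, described with Robo1) it was 53.9 and 150 CPM, a log2 ratio of 1.48 (1.35 to 1.62), so within that cluster Slit1 was past 2-fold. In subicular or cortical excitatory-like nuclei it was 116 CPM in the control library and 175 CPM in the other, a log2 ratio of 0.59 (0.49 to 0.69). Committed oligodendrocyte precursor-like nuclei were the single class in which Slit1 rose, from 70 UMIs (20.2 CPM) to 134 UMIs (42.7 CPM), a log2 ratio of 1.07 (0.65 to 1.52). Their control level in CPM lay within the interval of the microglia-like nuclei, while per nucleus they held 0.149 Slit1 UMIs and microglia-like nuclei 0.0473. With called doublets kept the ratio was 0.98, short of the rule. In this class the 9 inhibitory markers summed to 4439 and 5563 CPM (7 of 9 higher), the 9 granule markers to 1992 and 2260 CPM (4 of 9 higher) and the 8 Cajal-Retzius markers to 13.0 and 24.9 CPM (6 of 8 higher), none of them at 0, and their part in the result was not tested. Oligodendrocyte precursor-like nuclei had 13.8 and 24.7 CPM.

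Slit2 (ENSMUSG00000031558) was highest, among the 16 classes with at least 100 nuclei in each library, in CA3-like nuclei, at 725 CPM in the control library, followed by subicular or cortical excitatory-like nuclei with 270, inhibitory-like nuclei with 231 and immature granule-like nuclei with 230 CPM. The last pair did not differ beyond their intervals. The mossy cell-like nuclei, the other excitatory neuron of the dentate gyrus, carried 754 CPM on 1403 UMIs, with an interval (715 to 794) that held the CA3-like level, and 726 CPM in the library labelled knockout, where CA3-like nuclei had 403. Mature granule-like nuclei were low, at 79.6 CPM, and microglia-like nuclei lowest, at 21.4 CPM.

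In CA3-like nuclei the difference in Slit2 stayed under 2-fold while its interval lay well below 0. The control library held 21526 Slit2 UMIs there (725 CPM) and the library labelled knockout 9722 (403 CPM), a log2 ratio of -0.85 (-0.88 to -0.81). Both CA3-like clusters showed it, with 728 and 414 CPM in the larger (leading gene Gm53240) and 714 and 360 CPM in the smaller (leading gene Odad2). The smaller was more weakly CA3-like, with 5 raised markers and a mean marker log2 fold of 0.76. The larger had 8 raised markers and 1.79. After each nucleus was thinned to 2000 UMIs, 68.7% of control CA3-like nuclei and 49.5% of those of the other library had a Slit2 UMI, against 2.64% and 1.88% of microglia-like nuclei. Of the microglia-like nuclei, 672 of 1543 and 966 of 1499 were too shallow and left out. Without thinning the CA3-like shares were 98.2% and 95.4%, since CA3-like nuclei are deep. Slit2 was lower in nuclei of both sexes, with log2 ratios of -1.05 in female and -0.70 in male nuclei, a split within each pool of mice and not a replicate. Microglia-like nuclei, at a far lower level, had 21.4 and 11.8 CPM on 75 and 32 UMIs, a log2 ratio of -0.85 (-1.51 to -0.25). Among the marker lists, the 9 CA3 markers summed to 1602 and 1669 CPM in CA3-like nuclei (5 of 9 higher in the library labelled knockout), the 9 CA2 markers to 74.7 and 97.6 CPM (8 of 9 higher), the 7 neuroblast markers to 68.1 and 88.7 CPM (7 of 7 higher) and the 8 Cajal-Retzius markers to 8.09 and 25.3 CPM (8 of 8 higher), none of them at 0. The 10 subicular or cortical excitatory markers summed to 2468 and 2111 CPM (5 of 10 higher, none at 0). Their part in the result was not tested.

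The other pyramidal classes had less Slit2 in the library labelled knockout as well. CA2-like nuclei held 429 and 176 UMIs, or 123 and 68.2 CPM (log2 ratio -0.85, interval -1.12 to -0.60). The nuclei of called sex gave -1.19 in female (123 and 47 UMIs) and -1.12 in male nuclei (232 and 79 UMIs), both past 2-fold, and with called doublets kept the ratio was -0.55. CA1-like nuclei had 166 and 104 CPM (-0.67, -0.73 to -0.61; -1.13 in female and -0.42 in male nuclei). Most of the Slit2 in the CA1-like class came from its smallest cluster (leading gene Gm12130), which held both libraries in balance and had 648 and 387 CPM. In the rest of the CA1-like class the levels were 67.8 and 19.99 CPM, a log2 ratio of -1.76 (-1.91 to -1.62). Outside the pyramidal classes the ratios varied. Mossy cell-like nuclei had 754 and 726 CPM, immature granule-like nuclei 230 and 222, and inhibitory-like nuclei 231 CPM in both, with intervals of the ratio that included 0. Slit2 was lower in astrocyte-like nuclei, at 111 and 79.8 CPM (log2 ratio -0.48, interval -0.63 to -0.33), and in mature granule-like nuclei, at 79.6 and 61.0 CPM (-0.38, -0.45 to -0.31). Oligodendrocyte-like nuclei had 109 and 147 CPM (log2 ratio 0.43, interval 0.31 to 0.55), but the sign differed within the class, which was split by library. Its cluster of 964 and 227 nuclei (leading gene 4930420G21Rik) had 101 and 48.2 CPM (-1.06, -1.45 to -0.71), and its cluster of 228 and 712 nuclei (leading gene Tnni1) 133 and 167 CPM (0.32, 0.15 to 0.50). Female nuclei of the class gave -0.13 (174 and 158 CPM, interval -0.32 to 0.05) and male nuclei 1.11 (73.9 and 160 CPM, 0.93 to 1.30).

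Slit3 (ENSMUSG00000056427) had its highest levels in granule-like and pyramidal classes. Its control level was 2267 CPM in granule-like, 1773 in CA1-like, 1508 in CA3-like, 1194 in immature granule-like, 1072 in cycling progenitor-like and 1046 CPM in CA2-like nuclei. The intervals of the last pair overlapped, and those of the other neighbours in this order did not. In the cycling progenitor-like class 5717 of 5921 Slit3 UMIs came from the very deep nuclei (1392 CPM), while the cluster led by Top2a had 144 CPM. Inhibitory-like nuclei had 140 CPM and astrocyte-like nuclei, the lowest, 25.3 CPM. In granule-like nuclei 131509 UMIs in the control library and 74960 in the other gave 2267 and 1790 CPM, a log2 ratio of -0.34 (-0.35 to -0.33), with which CA1-like nuclei (1983 CPM) took the first place in the library labelled knockout. CA3-like nuclei had 1508 and 1598 CPM. At 2000 UMIs a Slit3 UMI was found in 97.9% and 95.4% of granule-like nuclei.

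Endothelial-like nuclei were the class in which both Slit2 and Slit3 rose, on few counts. Slit2 went from 15 to 100 UMIs (50.6 to 239 CPM, log2 ratio 2.20, interval 1.45 to 3.13) and Slit3 from 14 to 114 UMIs (47.2 to 272 CPM, 2.48, 1.72 to 3.44). The cluster of 101 and 138 nuclei is mixed: Slc6a13, Ptgds and Bnc2 stood among its leading genes, the 8 fibroblast markers summed to 2641 and 3288 CPM (5 of 8 higher in the library labelled knockout, none at 0), the 9 mural markers to 2429 and 1478 CPM (2 of 9 higher), and the 10 endothelial markers to 5022 and 3431 CPM (3 of 10 higher). The 10 subicular or cortical excitatory markers, of a class with more Slit2 and Slit3 in the control library, summed to 796 and 1538 CPM (5 of 10 higher, none at 0), and the 8 CA1 markers to 111 and 181 CPM (2 of 8 higher, Fibcd1 at 0). The 9 granule markers, of the class with the highest control level of Slit3, summed to 1950 and 1349 CPM (3 of 9 higher, none at 0). A Slit2 UMI was found in 8 and 21 of these nuclei and a Slit3 UMI in 7 and 17. The part of this makeup in the result was not tested. With called doublets kept, the log2 ratios were 0.10 for Slit2 and 0.77 for Slit3.

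**Figure D2:**
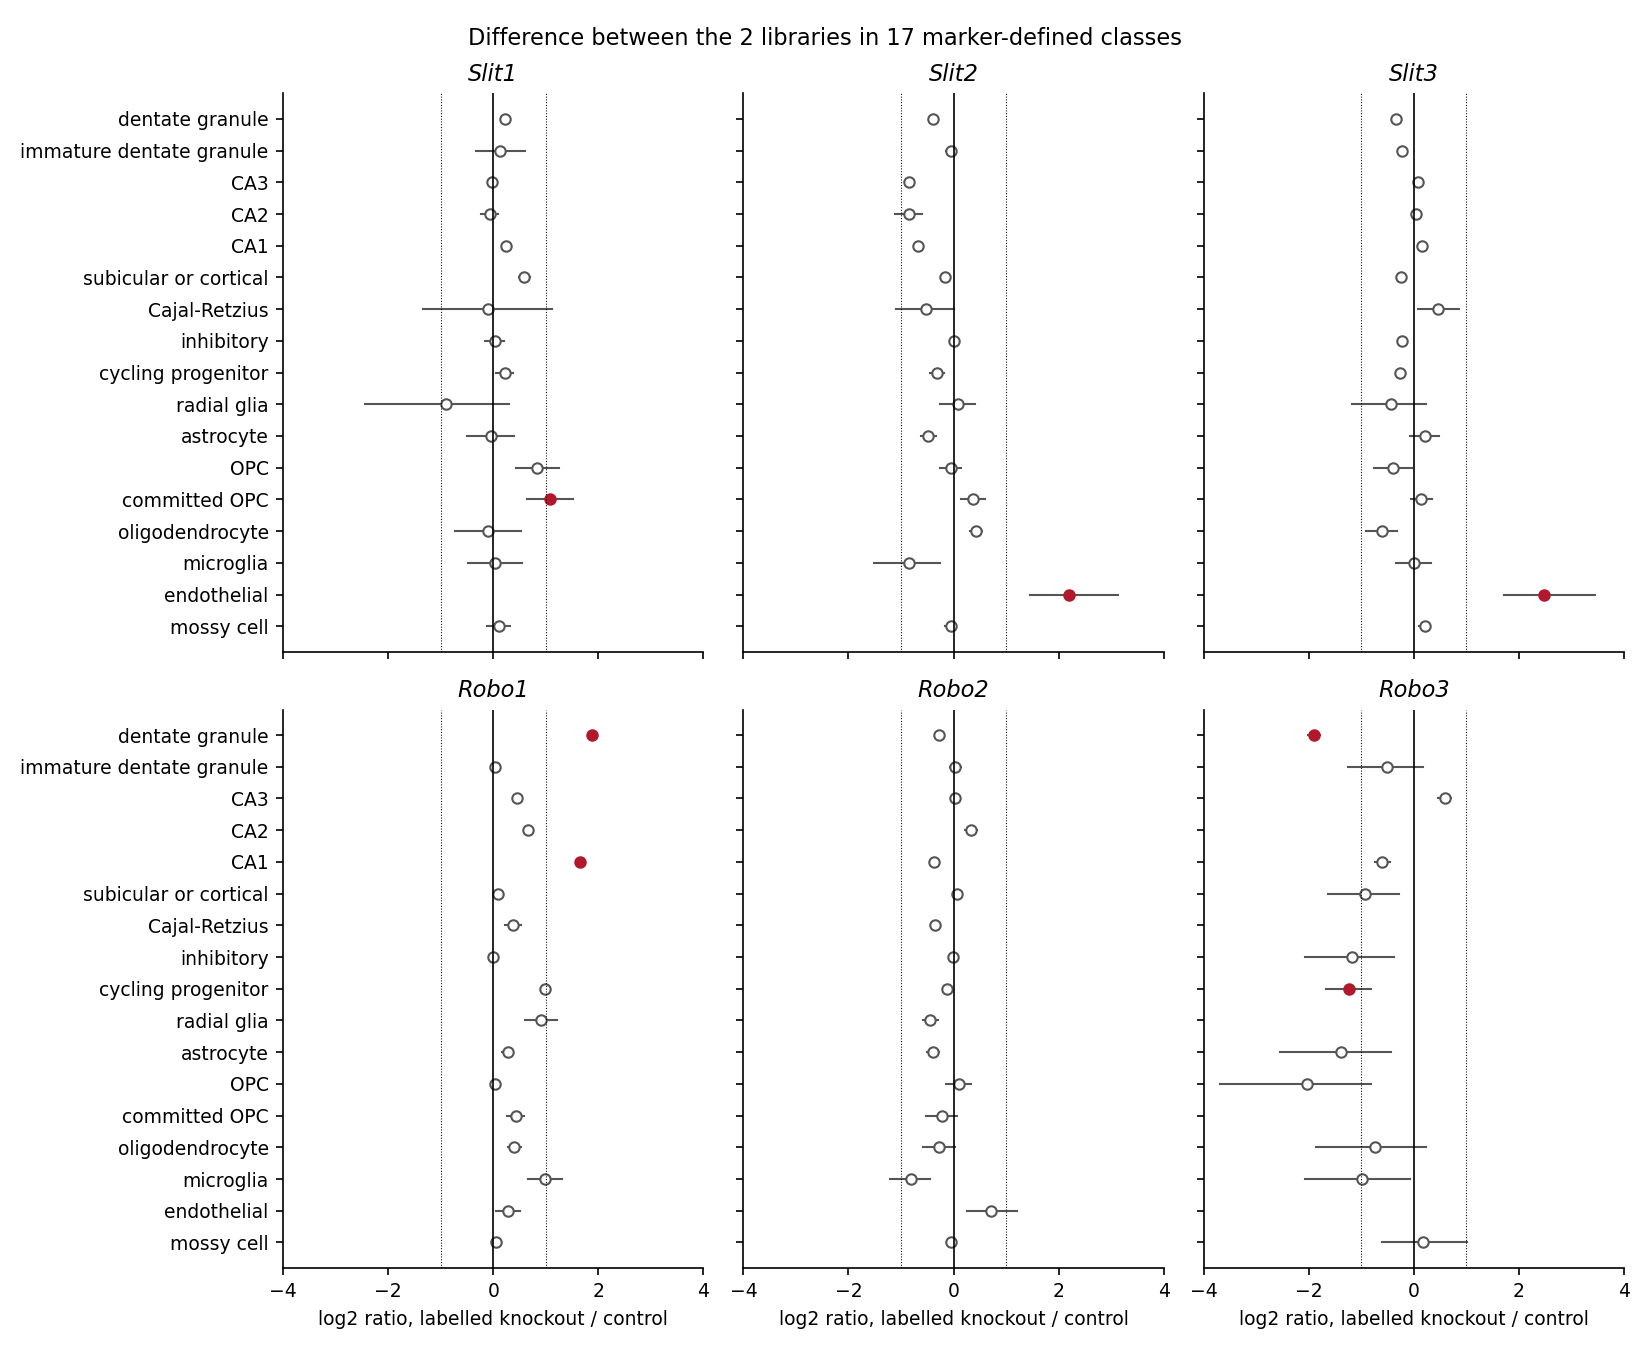
Log2 ratio of the library labelled knockout over control (x axis) for the 6 genes in 17 classes (y axis), with conditional binomial 95% intervals; classes with fewer than 20 UMIs in both libraries together are left out. Filled red points pass the size rule, and dotted lines mark 2-fold. Robo1 lies at or above 0 nearly everywhere, from 1.88 in granule to -0.01 in inhibitory nuclei, and Slit2 lies below 0 in CA3 (-0.85), CA2 (-0.85) and CA1 (-0.67) nuclei.

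Robo1 (ENSMUSG00000022883) had its highest control levels in immature granule-like and inhibitory-like nuclei. Immature granule-like nuclei had 2437 CPM and inhibitory-like nuclei 1847, followed, among the 16 classes, by CA3-like with 1027, CA2-like with 981 and oligodendrocyte precursor-like nuclei with 899. Mature granule-like nuclei stood at 838 CPM, close to endothelial-like nuclei (847), CA1-like nuclei at 509 CPM and microglia-like nuclei lowest at 39.1 CPM. Of all Robo1 UMIs in the control library, 21.1% came from granule-like nuclei.

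In the library labelled knockout granule-like nuclei took the first place. There were 48641 Robo1 UMIs in 4761 control granule-like nuclei and 129673 in 3810 nuclei of the other library, so that the level rose from 838 to 3096 CPM, a log2 ratio of 1.88 (1.87 to 1.90). The level in immature granule-like nuclei was 2437 and 2485 CPM in the same libraries, a log2 ratio of 0.03 (0.00 to 0.05). Mature granule-like nuclei were thus below immature ones in the control library and above them in the other. Granule-like nuclei held 36.3% of all Robo1 UMIs in the library labelled knockout. Female and male nuclei gave log2 ratios of 1.88 and 1.93.

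The difference was spread over the granule-like nuclei and was not carried by a few. At 2000 UMIs per nucleus, which left out 3 and 8 shallower nuclei, 62.9% of control granule-like nuclei and 98.7% of those labelled knockout had a Robo1 UMI, and without thinning 91.0% and 99.8%. The median nucleus held 1 Robo1 UMI of 2000 in the control library and 6 in the other. Nuclei with at least 5 made up 10.2% and 67.3%. In microglia-like nuclei the thinned shares were 6.31% and 11.1% (unthinned 7.84% and 10.5%, at median depths of 2158 and 1730 UMIs), so Robo1 UMIs in nuclei not expected to express it were also more frequent in the library labelled knockout. Thinning left out 672 of 1543 control and 966 of 1499 other microglia-like nuclei. The level in microglia-like nuclei was 39.1 and 77.1 CPM. With the mean UMIs of every gene in a microglia-like nucleus subtracted from each granule-like nucleus of the same library, which lowers the totals as well, the granule log2 ratio of Robo1 was 1.86.

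**Figure D3:**
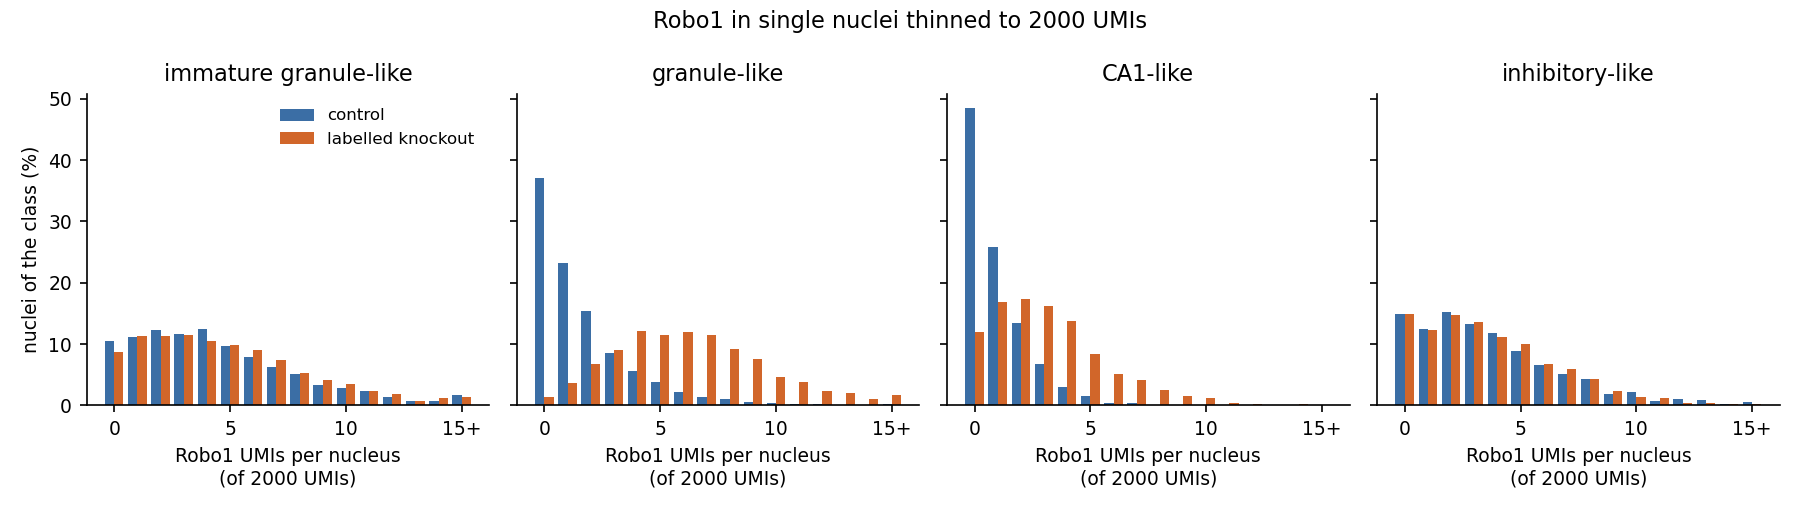
Share of nuclei (y axis, %) by the number of Robo1 UMIs per nucleus after thinning to 2000 UMIs (x axis, 15 or more pooled) in 4 classes, for the control library (blue) and the library labelled knockout (orange). Granule-like nuclei move from a median of 1 to 6 UMIs and CA1-like nuclei from 1 to 3, while immature granule-like (median 4 in both) and inhibitory-like nuclei (median 3 in both) overlap.

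Granule-like nuclei fell into different clusters in the libraries, and the size of the Robo1 difference depended on which were compared. Cluster 2 (leading gene Glis3) held 3616 control nuclei and 55 of the other library, cluster 4 held 34 and 2665, and cluster 6 (leading gene Il27ra) both in balance, 1111 and 1090. In cluster 6 Robo1 was 1921 CPM in the control library and 3553 CPM in the other, a log2 ratio of 0.89 (0.86 to 0.91), below the 2-fold line. In clusters 2 and 4 together it was 569 and 2948 CPM, a log2 ratio of 2.37 (2.35 to 2.39). The few control nuclei inside cluster 4 had 1387 CPM and the few nuclei labelled knockout inside cluster 2 had 1527 CPM, both between the levels of the main bodies.

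The clusters of the granule lineage were ordered by maturity markers within each library. The 8 immature granule markers, such as Dcx and Sox11, summed to 1575 CPM in the immature cluster of the control library, 438 CPM in cluster 6 and 171 CPM in cluster 2, and the 9 mature granule markers to 2086, 4818 and 6302 CPM. In the library labelled knockout the immature sum was 1644 CPM, then 458 in cluster 6 and 300.0 in cluster 4, and the mature sum 1872, 3640 and 4674 CPM. Along that order Robo1 went from 2437 to 1921 to 560 CPM in the control library and from 2485 to 3553 to 2976 CPM in the other. By these markers clusters 2 and 4 were not at the same maturity, the mature sum of cluster 4 lying below that of control cluster 6. Cluster 6 was not matched between the libraries either, with mature sums of 4818 and 3640 CPM. Its immature sums were 438 and 458 CPM. Stage and library therefore cannot be told apart in cluster 6 or in the last step. Over the whole granule-like class the immature sum was 226 and 337 CPM (8 of 8 markers higher in the library labelled knockout), the mature sum 5993 and 4427 CPM (8 of 9 lower) and the sum of the 8 Cajal-Retzius markers 8.93 and 46.9 CPM (6 of 8 higher), with no marker of these lists at 0. The part of these shifts in the result was not tested. Granule-like nuclei without a UMI of the immature markers, 909 (19.1%) in the control library and 251 (6.59%) in the other, had 543 and 2873 CPM of Robo1, a log2 ratio of 2.40 (2.35 to 2.46).

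**Figure D4:**
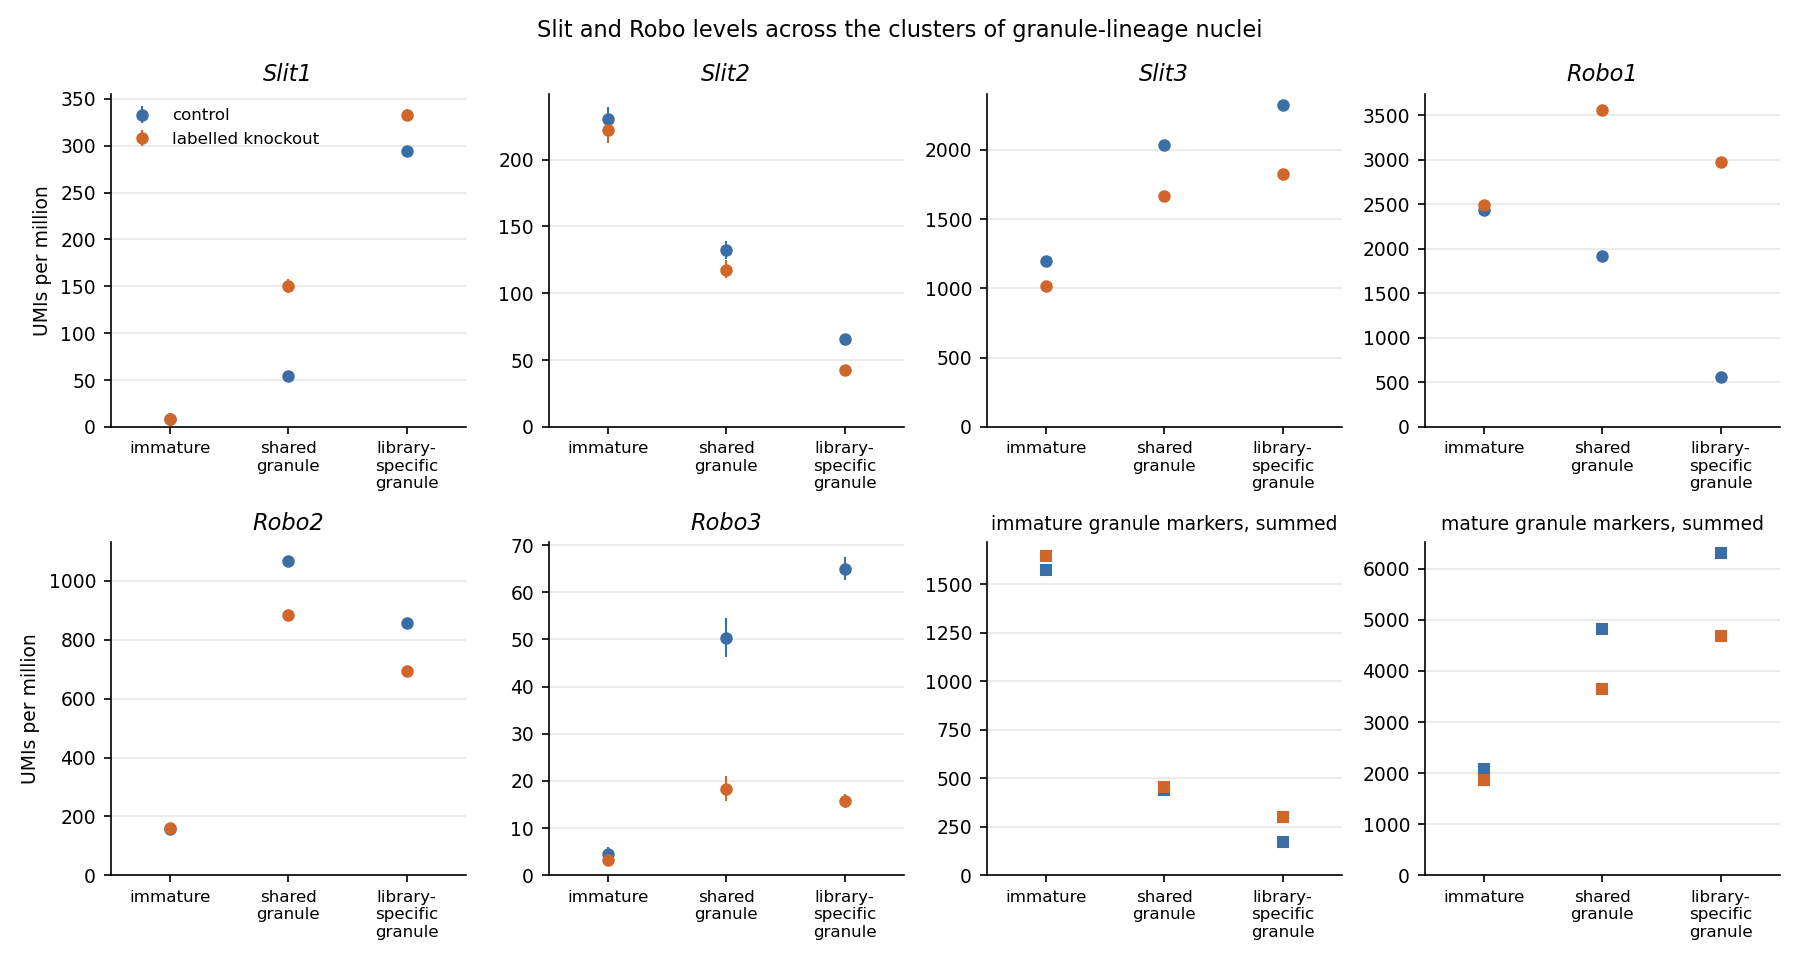
Levels of the 6 genes and summed levels of the immature and mature granule markers (y axes, CPM, from 0) in the immature cluster, in the granule cluster shared by the libraries (cluster 6), and in the granule cluster that mostly holds 1 library (cluster 2 for control, blue, and cluster 4 for the library labelled knockout, orange). Bars are exact Poisson 95% intervals, drawn for the 6 genes. In the last position Robo1 is at 560 in the control library and 2976 in the other, and Robo3 at 65.0 and 15.7. That position is not matched for maturity, with mature markers at 6302 and 4674 CPM. Cluster 6 is not matched either, with mature markers at 4818 and 3640 CPM.

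CA1-like nuclei were the other class in which Robo1 rose. They had 21170 UMIs in the control library and 47770 in the other, 509 and 1592 CPM, a log2 ratio of 1.65 (1.62 to 1.67). This class was also split by library, with 343 and 1411 nuclei in cluster 8 (leading gene Emp1) and 1490 and 10 in cluster 9 (leading gene 4921539H07Rik). In the balanced cluster led by Gm12130 Robo1 was 591 and 1532 CPM (log2 ratio 1.37, interval 1.32 to 1.43), and in clusters 8 and 9 together 492 and 1610 CPM (1.71). The balanced cluster was only weakly CA1-like, with 4 raised markers and a mean marker log2 fold of 0.59. Clusters 8 and 9 had 8 raised markers each and mean log2 folds of 1.62 and 1.58. At 2000 UMIs the share of CA1-like nuclei with a Robo1 UMI was 51.6% and 88.0%. The 8 immature granule markers, several of them general markers of young neurons, summed to 298 and 386 CPM in CA1-like nuclei, with 8 of 8 higher in the library labelled knockout. The 8 CA1 markers summed to 969 and 811 CPM (5 of 8 higher), the 9 CA2 markers to 39.1 and 56.8 CPM (6 of 9 higher) and the 8 Cajal-Retzius markers to 9.32 and 19.8 CPM (7 of 8 higher), none of them at 0. The part of these shifts in the result was not tested.

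Robo1 was higher in the library labelled knockout in 15 of the 16 classes, with an interval above 0 in 14. That count is for plain CPM and includes microglia-like nuclei, the class used to show free RNA. With another scaling of the totals the log2 ratio in immature granule-like nuclei was -0.043. In subicular or cortical excitatory-like nuclei the interval began at 0.048, and that scaling lowers the ratio there by 0.063. The ratio was intermediate in CA2-like nuclei (981 and 1550 CPM, log2 0.66) and CA3-like nuclei (1027 and 1397 CPM, 0.44). Of the glial and progenitor classes, microglia-like nuclei had 39.1 and 77.1 CPM (0.98, interval 0.66 to 1.30) and radial glia-like nuclei 106 and 200 CPM (0.91, 0.59 to 1.22). Cycling progenitor-like nuclei had 702 and 1380 CPM (0.98), most of it in the very deep nuclei, and the larger cluster led by Top2a had 235 and 536 CPM (1.19, interval 1.00 to 1.38). Nuclei of called sex held few of that class's Robo1 UMIs. They gave -0.61 in female (-0.87 to -0.35) and 1.09 in male nuclei (0.79 to 1.39). At the low end, oligodendrocyte precursor-like nuclei had 899 and 914 CPM, inhibitory-like nuclei 1847 and 1836, and mossy cell-like nuclei 1307 and 1352. Inhibitory-like nuclei thinned to 2000 UMIs had a Robo1 UMI in 85.1% in both libraries.

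Robo2 (ENSMUSG00000052516) stood out in Cajal-Retzius-like nuclei, early-born neurons of the outer molecular layers. Its level there was 4363 CPM in the control library, followed by radial glia-like nuclei with 905, granule-like with 899, CA1-like with 802 and CA3-like nuclei with 796 CPM. Outside that order, mossy cell-like nuclei had 1150 and 1118 CPM in the libraries. Radial glia-like and granule-like nuclei did not differ beyond their intervals, and neither did CA1-like and CA3-like nuclei. Immature granule-like nuclei had 157 CPM, so Robo2 was low where Robo1 was highest in the control library, and it reached 1066 CPM in cluster 6 and 857 CPM in cluster 2.

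No class passed the size rule for Robo2. It was 899 and 740 CPM in granule-like nuclei (log2 ratio -0.28, interval -0.30 to -0.26), 802 and 618 CPM in CA1-like nuclei (-0.38) and 4363 and 3430 CPM in Cajal-Retzius-like nuclei (-0.35, -0.41 to -0.28). CA3-like nuclei had 796 and 810 CPM and inhibitory-like nuclei 731 and 729 CPM. In radial glia-like nuclei, 1360 and 625 UMIs gave 905 and 667 CPM (-0.44), and the share of these nuclei with a Robo2 UMI at 2000 UMIs was 77.3% and 64.0%. Microglia-like nuclei had 55.0 and 31.2 CPM (-0.81, -1.20 to -0.44). Robo2 was higher in the library labelled knockout in CA2-like nuclei, at 405 and 510 CPM (0.33, 0.22 to 0.44), and in endothelial-like nuclei, at 186 and 306 CPM (0.71, 0.25 to 1.20). Robo1 and Robo2, which neighbour each other on the chromosome, were compared in the classes where both intervals excluded equal levels. Their ratios had opposite signs in granule-like, CA1-like, radial glia-like, Cajal-Retzius-like, astrocyte-like and cycling progenitor-like nuclei. The same held in microglia-like nuclei (Robo1 0.98, Robo2 -0.81), the class used to show free RNA. The signs were the same in CA2-like, endothelial-like and subicular or cortical excitatory-like nuclei.

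In CPM, Robo3 (ENSMUSG00000032128) exceeded its microglia-like level in few classes. Control granule-like nuclei had 61.7 CPM, CA3-like nuclei 33.5, CA1-like nuclei 28.9 and cycling progenitor-like nuclei 28.4, and the last pair overlapped. Microglia-like nuclei had 9.69 CPM (4.78 in the library labelled knockout, on 34 and 13 UMIs), and all the other 11 of the 16 classes less than 9.69 CPM. Mossy cell-like nuclei had 12.4 and 14.1 CPM, on 23 and 35 UMIs. Microglia-like nuclei were shallow, so CPM alone cannot show whether these low levels are free RNA. Per nucleus, control microglia-like nuclei held 0.022 Robo3 UMIs. Subicular or cortical excitatory-like nuclei held 0.0956, CA2-like 0.0694 and inhibitory-like nuclei 0.0411. Astrocyte-like (0.0184), Cajal-Retzius-like (0.0114) and endothelial-like nuclei (0.0099) held less, and the remaining low classes 0.022 to 0.0318. The part of free RNA was not tested.

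In granule-like nuclei Robo3 fell from 3580 UMIs (61.7 CPM) to 693 UMIs (16.5 CPM), a log2 ratio of -1.90 (-2.02 to -1.78). The share of granule-like nuclei with a Robo3 UMI was 42.0% and 14.7%, and at 2000 UMIs 10.9% and 2.74%, where the microglia-like nuclei deep enough for thinning had 2.41% and 1.13%. Clusters 2 and 4 together had 64.6 and 15.98 CPM, and the balanced cluster 6 had 50.3 and 18.3 CPM (log2 ratio -1.46, interval -1.70 to -1.22). Immature granule-like nuclei had 4.54 and 3.16 CPM. In the control library Robo3 was thus high in the granule clusters with more of the mature markers, the reverse of Robo1. Female and male nuclei gave -2.05 and -1.70.

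CA3-like nuclei had more Robo3 in the library labelled knockout, 33.5 and 50.3 CPM on 993 and 1213 UMIs (log2 ratio 0.59, interval 0.47 to 0.71), under the 2-fold line, and they held the highest Robo3 level of that library. CA1-like nuclei had 28.9 and 19.1 CPM (-0.60), but 2.70 and 3.48 CPM in the balanced cluster. Robo3 also fell in cycling progenitor-like nuclei, from 157 to 68 UMIs (28.4 to 12.04 CPM, log2 ratio -1.23, interval -1.67 to -0.82). Of those UMIs 143 and 64 came from the very deep nuclei, and the larger cluster led by Top2a had 14 and 4. With called doublets kept, with at least 1000 detected genes, in the balanced cluster, after thinning, and in female or male nuclei the class held at most 14 and 5 Robo3 UMIs, too few for the size rule, and the ratio ranged from -2.31 in female to -0.25 in male nuclei.

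The 250 bases before the annotated start of Robo1 and of Robo3, the receptors that moved in opposite directions in granule-like nuclei, were read from RefSeq promoter windows of GRCm38.p6, a different build from the mm39 of the files. Capicua is known to bind an octamer, and the windows were searched on both strands for its forms TGAATGAA, TGAATGGA, TCAATGAA and TCAATGGA, and for the Ets core forms CCGGAAGT and CAGGAAGT, since Capicua is known for repressing genes of Ets factors. The first set matched 3.19% and the second 5.49% of 32851 windows of the same length. Windows were held for 5 of the 6 members, Robo2 having 3, and none had a match, so both sequences are in lower case throughout.
Robo1, chr16:72662899-72663148, + strand: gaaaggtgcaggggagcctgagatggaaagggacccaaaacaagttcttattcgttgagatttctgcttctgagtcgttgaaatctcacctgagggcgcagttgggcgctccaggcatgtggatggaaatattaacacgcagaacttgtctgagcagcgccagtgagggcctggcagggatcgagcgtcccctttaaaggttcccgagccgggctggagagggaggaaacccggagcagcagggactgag
Robo3, chr9:37433176-37433425, - strand: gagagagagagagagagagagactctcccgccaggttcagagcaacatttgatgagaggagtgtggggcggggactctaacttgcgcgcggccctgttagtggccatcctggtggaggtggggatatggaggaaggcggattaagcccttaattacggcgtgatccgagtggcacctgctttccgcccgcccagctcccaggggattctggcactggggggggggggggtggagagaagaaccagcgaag
The Robo1 window had 56% G and C and the Robo3 window 61.2%. Each covers only the bases before 1 annotated start.

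Genes that act with Slits and Robos were taken as a list of 52: other Robo ligands and partners, heparan sulfate enzymes and carriers that Slit needs to bind Robo, regulators of Robo, and effectors such as the Slit-Robo GTPase-activating proteins. In granule-like nuclei 1 of the 44 with enough counts rose and 0 fell, 2.27% against 3.1% of all genes. It was Dcc, a netrin receptor that can bind Robo1, at 1284 and 3948 CPM (log2 ratio 1.62, interval 1.61 to 1.63). The median log2 ratio over 50 list members was -0.02, and over all genes 0.02. CA3-like and CA1-like nuclei each had 1 gene of the list that rose, of 43 and 42 with enough counts, and 0 that fell. That is 2.33% of the list against 1.61% of all genes in CA3-like nuclei, and 2.38% against 3.64% in CA1-like nuclei. In both it was Srgap1, a GTPase-activating protein that binds the cytoplasmic part of Robo1, at 56.5 and 145 CPM in CA3-like nuclei (log2 ratio 1.36, interval 1.28 to 1.45) and 97.3 and 323 CPM in CA1-like nuclei (1.73, 1.68 to 1.79). Srgap1 was low in granule-like nuclei, at 10.9 and 17.3 CPM. In inhibitory-like nuclei 0 of 44 passed, where 0.0911% of all genes did. Nell2, a ligand of Robo3 named here for that role and not for its ratio, had 929 and 914 CPM in granule-like and 944 and 898 CPM in CA3-like nuclei.

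Each member's distribution over the classes was compared with that of 14726 other genes by the Pearson correlation of log2(CPM + 1) over 32 points, the 16 classes in both libraries, as a description only, since points of a library share its depth and free RNA. Robo1 was most like Sorbs2 (r = 0.917), Cacna1c (0.891) and Slc41a2 (0.885), and Robo2 most like A330023F24Rik (0.931), Wscd2 (0.890) and Cpeb1 (0.870). For Robo3 they were Slc26a4 (0.875), Itpka (0.850) and Rnf112 (0.814). Slit1 lay nearest to Ano3 (0.925), Muc15 (0.919) and Zfp831 (0.912), and Slit3 to Camk2b (0.927), Sphkap (0.920) and Galnt17 (0.916). Slit2 had no close companion, with Phactr1 (0.748), Adamtsl1 (0.725) and Aff3 (0.723) at the head. Among the members themselves the closest pair was Slit1 and Slit3 (r = 0.770), and the least alike were Robo1 and Robo3 (0.163).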

How the data were processed

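The authors deposited unnormalized UMI counts for every gene and nucleus, from Cell Ranger 8.0.1 per the file headers, on mm39 per the submitters' processing notes. Whether counting used strand is not given in the sources used here, so counts may hold reads of genes that overlap on the opposite strand in GENCODE: 4930518C09Rik for Slit2, Gm12123 for Slit3, Gm49670 for Robo1, and Gm24272 and Gm18021 for Robo2. Gm20475 overlaps Slit2 and Gm12122 overlaps Slit3 on the same strand, where strand does not separate the reads.

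Nuclei with at least 500 detected genes and at most 5% mitochondrial UMIs were kept, and doublets called by Scrublet (scanpy 1.11.5, expected rate 0.1; 12.7% of control nuclei, 10.9% of the others) were left out. Both libraries were clustered together without batch correction (3000 variable genes, 30 components, 15 neighbours, Leiden resolution 1, leidenalg 0.10.2), and clusters were named from 21 marker sets where at least 3 markers were raised. UMIs were summed per library and class. Intervals were exact Poisson for levels, exact binomial for shares and conditional binomial for ratios, all from the counts as they were. For the log2 ratios themselves 0.5 UMI was added to each sum. The ratio step was tested on simulated counts. Nuclei were called female with 2 or more Xist UMIs and none of Y-linked genes, and male with the reverse and no Xist UMI. Nuclei that met neither rule were left out of the split by sex. The members and lists were chosen with earlier results of these data known. Named were all members, list genes that passed the size rule in granule-like, CA3-like or CA1-like nuclei, the 3 genes most like each member, and Cic. Outside that rule, Nell2 was named for its role and list genes that passed in other classes after their values were seen. There were 12 alternatives listed and 2 added after seeing the data.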

Additional observations from a re-analysis of the deposited data

Results flagged for a closer look

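In 6 cases the log2 ratio of a member (library labelled knockout over control) had an interval above 0 in nuclei of 1 sex and below 0 in the other. The difference between the sexes was not tested, the female nuclei of each pool come from 1 mouse, and 96 combinations of member and class were looked at. Slit2 was -0.72 in female and 0.29 in male nuclei of the subicular or cortical excitatory-like class. In committed oligodendrocyte precursor-like nuclei Slit2 was 1.06 in female and -0.39 in male nuclei, and Robo2 0.66 and -1.04. Slit3 in CA2-like nuclei was -0.16 in female and 0.14 in male nuclei. Robo1 in cycling progenitor-like nuclei was -0.61 in female (376 and 193 UMIs) and 1.09 in male nuclei (145 and 262 UMIs). Most of the 3873 and 7798 Robo1 UMIs of that class lay in nuclei without a called sex. Robo2 in inhibitory-like nuclei was 0.20 in female and -0.055 in male nuclei.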

How the results depend on the processing

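The granule-like count stayed at 2 members in all 14 alternatives, as Robo1 and Robo3 in 13 of them. In clusters with a balanced share of both libraries the 2 were Slit1 (log2 ratio 1.48; 53.9 and 150 CPM) and Robo3, with Robo1 at 0.89 (1.7% of all genes passed). Robo1 otherwise ranged up to 2.40, in nuclei without a UMI of the immature markers. In female nuclei 1 member passed in CA3-like nuclei (Slit2; 2.97% of all genes) and 2 in CA1-like nuclei (Slit2 and Robo1; 5.12%). With at least 20 UMIs and no minimum on CPM, 1 passed in inhibitory-like nuclei (Robo3, 47 and 18 UMIs; 1.13% of all genes). Robo1 in CA1-like nuclei ranged from 1.37 to 1.79 and Slit2 in CA3-like nuclei from -1.05 to -0.70, and in CA2-like nuclei from -1.19 to -0.55. The signs of Robo1 in immature granule-like and inhibitory-like nuclei, both near 0, and of Robo3 in CA1-like nuclei (0.36 in the balanced cluster) changed in some alternatives. Other scalings moved CA2-like and CA1-like nuclei by 0.11 to 0.13 on the log2 scale, relative to which Robo1 in CA1-like nuclei was 1.53. No paired analysis was possible because each genotype has 1 library, and for the same reason no library could be left out. Depth limits Robo3 in all but the granule, CA3, CA1 and cycling progenitor classes.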

Other observations

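Inhibitory-like nuclei fell into 3 clusters that differed in Slit2 and were alike in Robo2. The cluster with Lhx6 and Crhbp among its leading genes had 380 CPM of Slit2 in the control library and 412 CPM in the other, on 4296 and 3896 UMIs. The cluster with Vip and Adarb2 had 19.5 and 11.4 CPM. The cluster with Hapln1 and Mctp2, which also had Lhx6 among its leading genes, had 116 and 85.7 CPM. Microglia-like nuclei had 21.4 and 11.8 CPM, but at median depths of 2158 and 1730 UMIs. The cluster with Vip and Adarb2 had medians of 16118 and 13134 UMIs. Robo1 was 2141 and 2018 CPM, 1955 and 2040 CPM, and 741 and 911 CPM in these clusters. Robo2 was between 655 and 848 CPM in all of them in both libraries. In the library labelled knockout Slit2 was thus higher in the cluster with Lhx6 and Crhbp and lower in the others. Robo1 was lower in that cluster and higher in the others.

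In 5 other classes genes of the pathway list passed the size rule, and they are named here after their values were seen. They were 1 of the 42 list genes with enough counts in CA2-like nuclei (2.38% against 3.26% of all genes), 1 of 38 in radial glia-like (2.63% against 0.753%), 3 of 43 in oligodendrocyte-like (6.98% against 3.24%), 1 of 43 in microglia-like (2.33% against 1.39%) and 2 of 21 in endothelial-like nuclei (9.52% against 5.6%). Hs6st2, a heparan sulfate 6-O-sulfotransferase, rose from 27 to 123 UMIs in CA2-like nuclei (log2 ratio 2.60). Dcc rose in radial glia-like nuclei from 222 to 571 CPM. In oligodendrocyte-like nuclei, which fell mostly into different clusters in the libraries (964 and 227 nuclei in one, 228 and 712 in the other), Sdc2, a heparan sulfate carrier, and Cables1 rose (log2 ratios 1.17 and 2.19) and Nck2, an adaptor protein, fell (-1.08). Enah, a regulator of actin assembly, fell in microglia-like nuclei from 58.7 to 23.9 CPM. In endothelial-like nuclei Dcc and Abl1 rose (log2 ratios 1.11 and 1.01), in the mixed cluster described above.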
